A study of Mus musculus with 4 samples.

Results

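Histone acetyltransferases and acetyl-lysine readers were followed through 9 genes chosen by symbol, with earlier results of these data known. These were *Ep300*, *Crebbp*, *Kat2a*, *Kat2b*, *Kat5*, *Kat6a*, *Kat7*, *Kat8* and *Brd2*, out of 36144 gene names in the deposited count table. All 9 were in the table. Of the 9 genes, 8 encode acetyltransferases and 1, *Brd2*, encodes a reader with no acetyltransferase activity, while 5 encode proteins with a bromodomain. The data are bulk RNA-seq of poly-A RNA from mouse colonic organoids, which are epithelial cultures grown from colonic crypts in Matrigel. The 4 libraries were an untreated and a butyrate culture on day 2 (48 h), and an untreated and a butyrate culture on day 3 (72 h), each condition being a single library. Butyrate was given as 2 mM sodium butyrate in complete crypt medium, and the untreated cultures had the same medium, with EGF, Noggin, R-spondin, CHIR99021 and Y-27632, without butyrate. All cultures were at passage 3. The labels describe the donor as a wild type male mouse of 24 weeks, whereas the study describes organoids of Hes1-GFP reporter mice, with a single repeat for this experiment, and the genotype entered no comparison.

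Acetyltransferases move the acetyl group of acetyl-CoA onto lysines of histone tails and of many other nuclear proteins, and histone deacetylases remove it. Acetylated lysines are bound by reader modules, of which the bromodomain is the best known. Butyrate, which bacteria of the colon make from dietary fibre, is a fuel and receptor ligand of colonic epithelium and is also a known inhibitor of histone deacetylases. The genes below therefore encode the enzymes that write, and a protein that reads, the mark whose removal butyrate is known to slow. RNA levels do not measure enzyme activity or acetylation, and neither was measured in these libraries.

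The total count was between 20790225 and 24207840 per library. Marker genes of colonic epithelium, 8 of 8 with counts in every library, had summed levels between 119193 and 130983 normalised counts. With butyrate on day 3, 7 of the 8 had a 95% counting interval of the log2 fold change below 0 and 1 above 0, with a median of −0.17. On day 2, 3 were below 0 and 4 above, with a median of 0.03. The 1 marker at least 1.5-fold lower on day 3 was *Krt20*, a keratin of mature colonocytes named after its values were seen, with 1554 normalised counts against 2604 without butyrate. The part of these markers in the values of the 9 genes on day 3 was not tested. The summed levels of 7 immune markers were between 41.7 and 71.3, those of 7 mesenchyme markers between 22.7 and 27.2, those of 5 endothelial markers between 32.7 and 57.3 and those of 5 glia and neuron markers between 41.7 and 77.8. The defining markers *Adgre1*, *Col3a1*, *Lum*, *Sox10* and *S100b* had no count in any library. With 1 library per condition, no difference could be set against replicate error and no test was made. Intervals are 95% intervals that cover counting error only. In bulk RNA, fewer cells of a type and less RNA per cell cannot be told apart.

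A pair of close relatives differed from untreated cultures in opposite directions on both days. *Kat2a* (GCN5) and *Kat2b* (PCAF) encode alternative catalytic subunits of the SAGA and ATAC coactivator complexes. *Kat2a* was higher and *Kat2b* lower with butyrate on day 2 and on day 3. The p300/CBP pair, *Ep300* and *Crebbp*, was lower with butyrate on day 2. With the DESeq2 size factors used, the pair showed no detectable difference on day 3. *Kat6a* was lower on both days. With the same size factors, *Kat5*, *Kat7* and *Kat8* differed by less than counting error could show on either day.

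**Figure D1:**
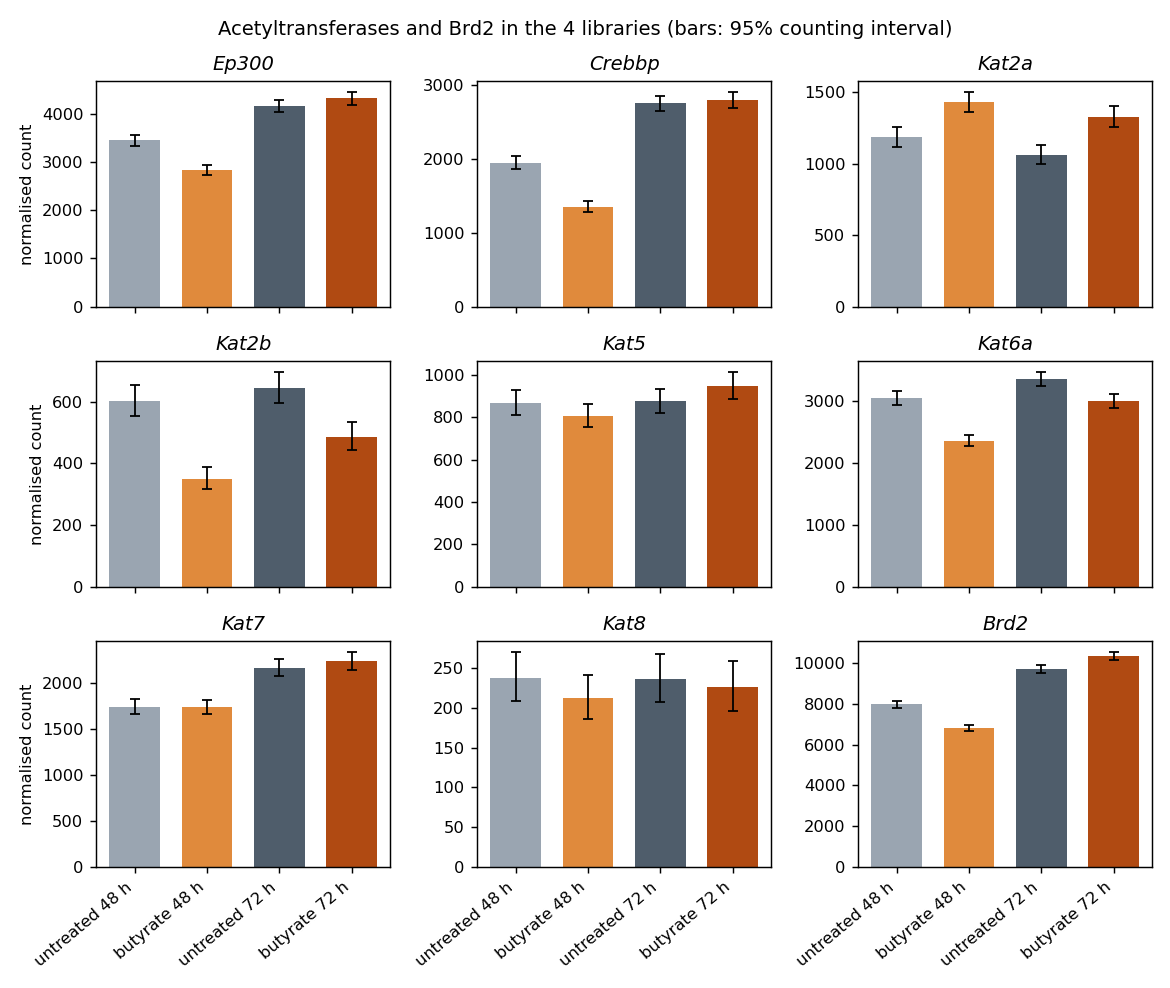
Normalised counts (counts divided by DESeq2 size factors, linear axis from 0) of the 9 genes in the 4 libraries, with bars for 95% Poisson counting intervals and 1 library per bar. *Kat2a* is higher and *Kat2b* lower in both butyrate libraries than in the untreated library of the same time, and 8 of the 9 genes, beside 31.9% of all genes, are lowest in the butyrate library at 48 h, 3 of the 8 (*Kat5*, *Kat7* and *Kat8*) within counting error of the untreated library of that time.

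*Kat2a* lies on chromosome 11, from 100704746 to 100712465 on the minus strand of GRCm38, with 3480 bases of exon. It had 1159 counts in the untreated and 1576 in the butyrate library on day 2, and 1076 and 1228 on day 3. After scaling, these were 1185, 1429.9, 1062 and 1326 normalised counts. Both butyrate libraries were above both untreated libraries, an order whose share over all genes was not counted. Butyrate over untreated gave a log2 fold change of 0.27 (0.16 to 0.38) on day 2 and 0.32 (0.20 to 0.44) on day 3, which is 20.6% and 24.8% higher. The difference between the effects on day 3 and day 2 was 0.05 (−0.11 to 0.21). *Kat2a* was the only one of the 9 genes whose level was highest in the butyrate library on day 2.

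*Kat2b* lies on chromosome 17, from 53566861 to 53672720 on the plus strand, with 4867 bases of exon. Its raw counts were 590 untreated and 386 with butyrate on day 2, and 654 and 451 on day 3. The normalised counts were 603, 350.2, 646 and 487. Both butyrate libraries were below both untreated libraries, and the share of all genes in that order was not counted. The log2 fold change was −0.78 (−0.97 to −0.60) on day 2 and −0.41 (−0.58 to −0.23) on day 3. The effect on day 3 was 0.38 (0.12 to 0.63) closer to 0 than on day 2, which was not tested against replicates. *Kat2b* on day 2 was the only member past 1.5-fold between the treatments of a day. Over the 13979 genes that passed a filter on low counts (above 10 in 2 or more libraries), 8.90% were at least 1.5-fold lower and 13.1% at least 1.5-fold higher on day 2, and 8.53% and 9.50% on day 3.

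Within a library the ratio of the relatives does not depend on scaling. Per kb of exon, *Kat2b* was at 0.364 (0.329 to 0.402) of *Kat2a* in the untreated and 0.175 (0.156 to 0.196) in the butyrate library on day 2. On day 3 the ratio was 0.435 (0.394 to 0.479) untreated and 0.263 (0.235 to 0.293) with butyrate. The summed level of the pair, in normalised counts per kb, was 465 untreated and 483 with butyrate on day 2, and 438 and 481 on day 3. *Kat2a* made up 73.3% of that sum untreated and 85.1% with butyrate on day 2, and 69.7% and 79.2% on day 3. The sum therefore varied by less between libraries than the share of each gene in it. The transcripts of the pair share 0 stretches of 31 bases, the word length at which a pseudoaligner tells them apart by default. A pseudogene, *Kat2b-ps*, shares 14.6% of the 31-base words of *Kat2b* and was counted at 0, 1, 0 and 0.

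The stretches just upstream of the start sites of this pair are shown because its members differed in opposite directions. They were taken from RefSeq windows of GRCm38.p6 and end before the first annotated exon in both RefSeq and GENCODE, with CG dinucleotides in capitals. The *Kat2a* stretch is chr11:100712468-100712717 on the minus strand and the *Kat2b* stretch is chr17:53566721-53566860 on the plus strand.
Kat2a: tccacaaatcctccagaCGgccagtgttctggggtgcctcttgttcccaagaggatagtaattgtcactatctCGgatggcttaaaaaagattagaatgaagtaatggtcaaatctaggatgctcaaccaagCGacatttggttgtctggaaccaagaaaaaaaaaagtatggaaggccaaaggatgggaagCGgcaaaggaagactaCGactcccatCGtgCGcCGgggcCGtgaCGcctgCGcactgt
Kat2b: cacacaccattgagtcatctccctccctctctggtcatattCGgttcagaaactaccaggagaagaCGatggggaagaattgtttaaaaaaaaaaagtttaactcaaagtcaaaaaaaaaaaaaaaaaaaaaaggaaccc

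The 250 bases of *Kat2a* hold 11 CG dinucleotides at 48.8% G and C, and the 140 bases of *Kat2b* hold 2 at 35.7%. In windows of 300 bases, 250 before and 50 after the RefSeq start, *Kat2a* has 19 and the main start of *Kat2b* 11, against a median of 7 over 32851 windows of mouse genes. A window was available for 8 of the 9 genes, and *Kat6a* had none. The GC box GGGCGG, searched on both strands, was in 7 of the 13 windows of these genes, from *Brd2*, *Crebbp*, *Ep300*, *Kat5* and *Kat8*, and in 35.7% of all windows. The CCAAT box, CCAAT on both strands, was in 5 of the 13, from *Kat2b*, *Kat5*, *Kat7* and *Kat8*, and in 37.4% of all windows. These matches describe the letters and not binding.

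**Figure D2:**
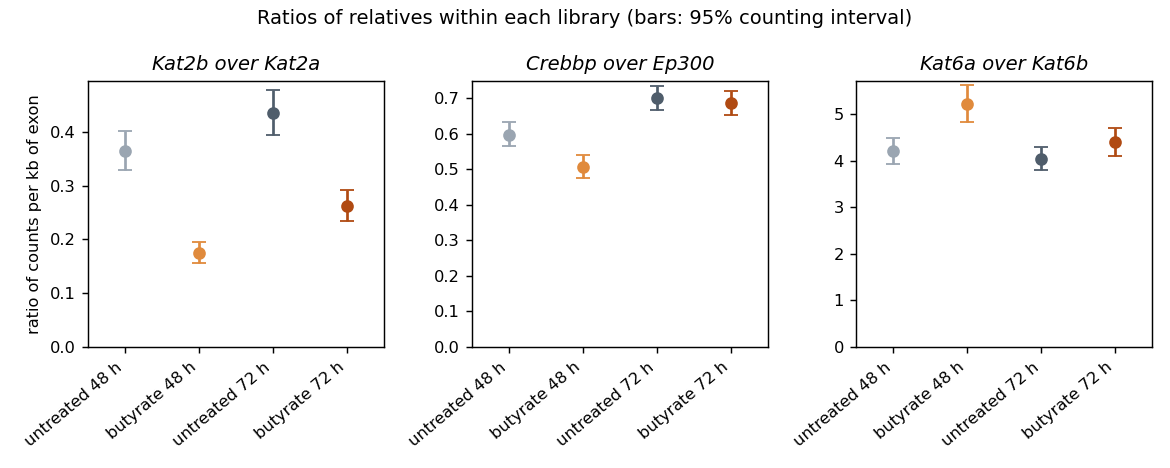
Ratio of counts per kb of exon of related genes within each library (linear axes from 0), with 95% counting intervals. *Kat2b* over *Kat2a* is lower in the butyrate library at both times, 0.175 against 0.364 at 48 h and 0.263 against 0.435 at 72 h, while *Crebbp* over *Ep300* differs at 48 h and not detectably at 72 h.

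*Ep300* (p300) and *Crebbp* (CBP) encode large bromodomain coactivators that join many transcription factors to the acetylation of enhancers, the Notch complex of Rbpj and Maml proteins among them. *Ep300*, on chromosome 15 from 81585351 to 81652077, had 3447 normalised counts untreated and 2827 with butyrate on day 2, and 4151 and 4317 on day 3. On the log2 scale, butyrate over untreated was −0.29 (−0.36 to −0.22) on day 2 and 0.06 (−0.01 to 0.12) on day 3. *Crebbp*, on chromosome 16 from 4081328 to 4213997, had 1953 and 1358 normalised counts on day 2, and 2758 and 2804 on day 3. Its log2 fold change was −0.52 (−0.62 to −0.43) on day 2 and 0.02 (−0.05 to 0.10) on day 3. For both genes, the butyrate library on day 2 was the lowest and the butyrate library on day 3 the highest of the 4. The effect on day 3 was above that on day 2 by 0.34 (0.25 to 0.44) for *Ep300* and by 0.55 (0.42 to 0.67) for *Crebbp*. These are among the longest genes measured, and long genes as a group were lower with butyrate on day 2 (values by exon length are given further on), whose part in these results was not tested.

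*Crebbp* had the widest range of the 9 genes, 2.06-fold between its lowest and highest library, ahead of *Kat2b* at 1.84-fold and *Ep300* at 1.53-fold. Time was part of that range. From day 2 to day 3, *Crebbp* was higher by 0.50 (0.41 to 0.58) in untreated and by 1.05 (0.95 to 1.14) in butyrate cultures, on the log2 scale. Per kb of exon, *Crebbp* was at 0.597 (0.564 to 0.632) of *Ep300* untreated and 0.506 (0.476 to 0.539) with butyrate on day 2. On day 3 the ratios of 0.700 (0.667 to 0.735) and 0.685 (0.651 to 0.720) overlapped within counting error. The transcripts of this pair share 1 word of 31 bases.

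The MYST family, the largest family of acetyltransferases in the list, had 4 members. *Kat6a* (MOZ), which works in a complex with Brpf scaffolds, lies on chromosome 8 from 22859535 to 22943259. It had 3040 normalised counts untreated and 2349.9 with butyrate on day 2, and 3349 and 2993 on day 3. For *Kat6a* the log2 fold change was −0.37 (−0.45 to −0.29) on day 2 and −0.16 (−0.24 to −0.09) on day 3. After the median of genes of like exon length was subtracted, these were −0.27 and −0.19. Both butyrate libraries were below both untreated libraries, again an order whose share over all genes was not counted. The effect on day 3 was closer to 0 than on day 2 by 0.21 (0.10 to 0.31). Its closest relative *Kat6b* (MORF), which was not a member, was at −0.68 (−0.81 to −0.56) and −0.28 (−0.39 to −0.17). Per kb of exon, the ratio of *Kat6a* to *Kat6b* was 4.20 (3.93 to 4.48) untreated and 5.21 (4.83 to 5.62) with butyrate on day 2. On day 3 it was 4.04 (3.80 to 4.29) and 4.39 (4.09 to 4.70), which overlapped within counting error. With the longest transcript as the length, since *Kat6b* then counts as 7699 rather than 16826 bases, the ratios were 1.94, 2.40, 1.86 and 2.02, so the order of the libraries held and the size of the excess rests on the length chosen.

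*Kat7* (HBO1), which takes part in the licensing of replication origins, lies on chromosome 11 from 95274259 to 95310246. Its level was 1741 untreated and 1732 with butyrate on day 2, and 2166 and 2238 on day 3, in normalised counts. The libraries thus grouped by time and not by treatment. The log2 fold change with butyrate was −0.01 (−0.10 to 0.09) and 0.05 (−0.04 to 0.13), and the change from day 2 to day 3 was 0.31 (0.22 to 0.41) untreated and 0.37 (0.28 to 0.46) with butyrate.

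*Kat5* (TIP60), which has roles in transcription and in the response to DNA damage, lies on chromosome 19 from 5603014 to 5610237. Its normalised counts were 867 untreated and 806 with butyrate on day 2, and 875 and 949 on day 3. The effect of butyrate on *Kat5* was −0.11 (−0.24 to 0.03) and 0.12 (−0.02 to 0.25), as log2 fold changes. These lie on opposite sides of 0 and differ by 0.22 (0.03 to 0.41), although each includes 0. *Kat8* (MOF), the catalytic subunit of the MSL and NSL complexes, lies on chromosome 7 from 127912516 to 127925837 and was the member with the fewest counts. It had 238 and 213 normalised counts on day 2, and 236 and 226 on day 3, with log2 fold changes of −0.16 (−0.43 to 0.11) and −0.06 (−0.34 to 0.21). Differences within these intervals were not detectable at this depth. Exons of *Kat5* overlap those of *Rnaseh2c* on the other strand over 426 bases, and *Kat8* overlaps *Prss8* over 122 bases. *Rnaseh2c* was counted at 456, 403, 375 and 309, and *Prss8* at 1125, 1032, 1166 and 738, in the order untreated and butyrate on day 2 and then on day 3. How reads of the overlaps were shared between the genes was not tested.

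*Brd2* encodes a BET protein, whose pair of bromodomains binds acetylated histone tails at active genes. It lies on chromosome 17 from 34112023 to 34122634 and had the highest level of the 9 genes per kb of exon. Its normalised counts were 7996 untreated and 6829 with butyrate on day 2, and 9722 and 10363 on day 3. The log2 fold change was −0.23 (−0.27 to −0.18) on day 2 and 0.09 (0.05 to 0.13) on day 3. *Brd2* was thus lower with butyrate on day 2 and slightly higher on day 3, by 6.59%. After the median of genes of like exon length was subtracted, its values were −0.15 and 0.09. Of its 31-base words, 8.60% occur in transcripts of other genes, most often in an antisense transcript of the locus. *H2-DMa*, which overlaps it over 360 bases, had at most 221 counts in a library.

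*Brd3* and *Brdt* were named as relatives. *Brd3*, another BET gene, had log2 fold changes of −0.45 (−0.55 to −0.35) and 0.20 (0.09 to 0.31). The testis gene *Brdt* had 14 counts untreated and 37 with butyrate on day 2, and 15 and 25 on day 3, with log2 fold changes of 1.17 (0.31 to 2.23) and 0.82 (−0.11 to 1.90). Per kb of exon, *Brd2* exceeded *Brd3* by a ratio of 4.15, 4.83, 6.64 and 6.15, in untreated and butyrate libraries on day 2 and then on day 3. The ratio was thus higher in both libraries of day 3 than in those of day 2. In untreated cultures *Brd3* was lower on day 3 than on day 2 by 0.40 on the log2 scale, whereas *Brd2* was higher by 0.28.

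**Figure D3:**
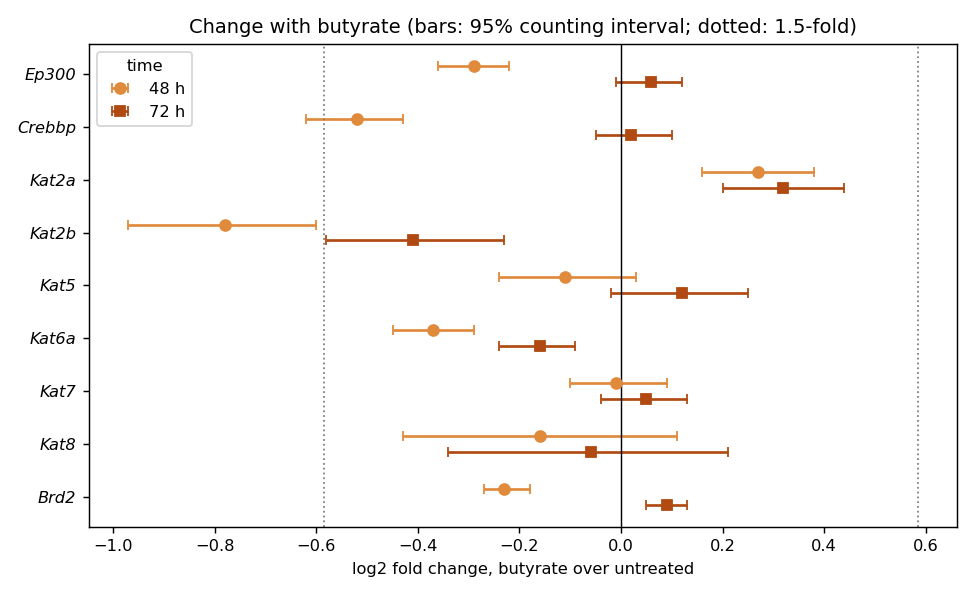
Log2 fold change of butyrate over untreated for the 9 genes at 48 h (circles) and 72 h (squares), with 95% counting intervals and dotted lines at 1.5-fold. Only *Kat2b* at 48 h passes the 1.5-fold line, and *Kat2a* is the only gene to the right of 0 at both times.

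Counted together, 1 of the 9 genes had an interval above 0 on day 2, 5 had an interval below 0 and 3 an interval that included 0. Over all genes, 29.3% had an interval above 0 and 31.3% below 0 on day 2. On day 3, 2 genes had an interval above 0, 2 below 0 and 5 included 0, where 25.9% of all genes were above 0 and 26.4% below. These counts hold for the size factors used, and values under total count scaling are given further on. *Kat2a* was the 1 gene above 0 on both days, beside 12.9% of all genes, and *Kat2b* and *Kat6a* were the 2 genes below 0 on both days, beside 13.6%. The comparisons on day 2 and day 3 share no library. For the 9 genes the median log2 fold change was −0.23 on day 2 and 0.05 on day 3, and for all genes −0.011 and 0.002. The median size of the change, whatever its sign, was 0.27 on day 2 and 0.09 on day 3 for the 9 genes, and 0.269 and 0.214 for all genes. Among genes averaging 100 or more normalised counts, as all 9 do, that size was 0.222 and 0.174.

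With time, 5 genes were higher in untreated cultures on day 3 than on day 2 by their intervals, 1 was lower and 3 included 0, beside 22.4% of all genes above 0 and 20.2% below. None of the 9 was past 1.5-fold in untreated cultures, where 6.82% of all genes were higher and 5.17% lower by that much. The higher genes were *Ep300*, *Crebbp*, *Kat6a*, *Kat7* and *Brd2*, at 0.27, 0.50, 0.14, 0.31 and 0.28, and the lower gene was *Kat2a* at −0.16 (−0.28 to −0.04). In butyrate cultures 7 genes were higher on day 3, none was lower and 2 included 0, beside 30.0% of all genes above 0 and 31.4% below. *Crebbp*, *Ep300* and *Brd2* were at least 1.5-fold higher on day 3 than on day 2 with butyrate, as were 9.66% of all genes, and no member was lower by that much, as 11.9% of all genes were. The genes whose interval included 0 were *Kat2a* and *Kat8*. *Kat2b* was higher on day 3 by 0.47 (0.28 to 0.68) with butyrate, beside 0.10 (−0.06 to 0.26) untreated. *Ep300* was 1.53-fold and *Brd2* 1.52-fold higher, just above the line. These comparisons share libraries with those of butyrate against untreated, and the low values of the butyrate library on day 2 enter both. With total count scaling, *Crebbp* alone was past 1.5-fold. After the median of genes of like exon length was subtracted, *Crebbp* was at 0.77, *Brd2* at 0.51 and *Ep300* at 0.34 on the log2 scale, so that again *Crebbp* alone was past the line.

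Exon length moved with these values. Among genes averaging 100 or more normalised counts, the median log2 fold change on day 2 was 0.10 for the 1314 genes with up to 2 kb of exon and −0.15 for the 640 genes with more than 12 kb, and it was lower at each step of length between them. On day 3 the order was turned, from −0.05 to 0.07. In butyrate cultures from day 2 to day 3, it ran from −0.20 to 0.27. *Ep300*, with 14273 bases of exon, and *Crebbp*, with 13540, are among the longest genes, and *Kat6a* has 9180 and *Brd2* 7826. After the median of genes of like length was subtracted, an alternative chosen after the values were seen, the log2 fold change on day 2 was −0.14 for *Ep300*, −0.38 for *Crebbp*, −0.27 for *Kat6a* and −0.15 for *Brd2*. *Kat2b* was then at −0.73 and *Kat2a* at 0.27 on day 2, and at −0.39 and 0.34 on day 3. The values of *Kat2a* and *Kat2b* were thus close to those before subtraction, and those of the longer genes on day 2 were nearer to 0. The part of exon length in the differences was not tested further.

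**Figure D4:**
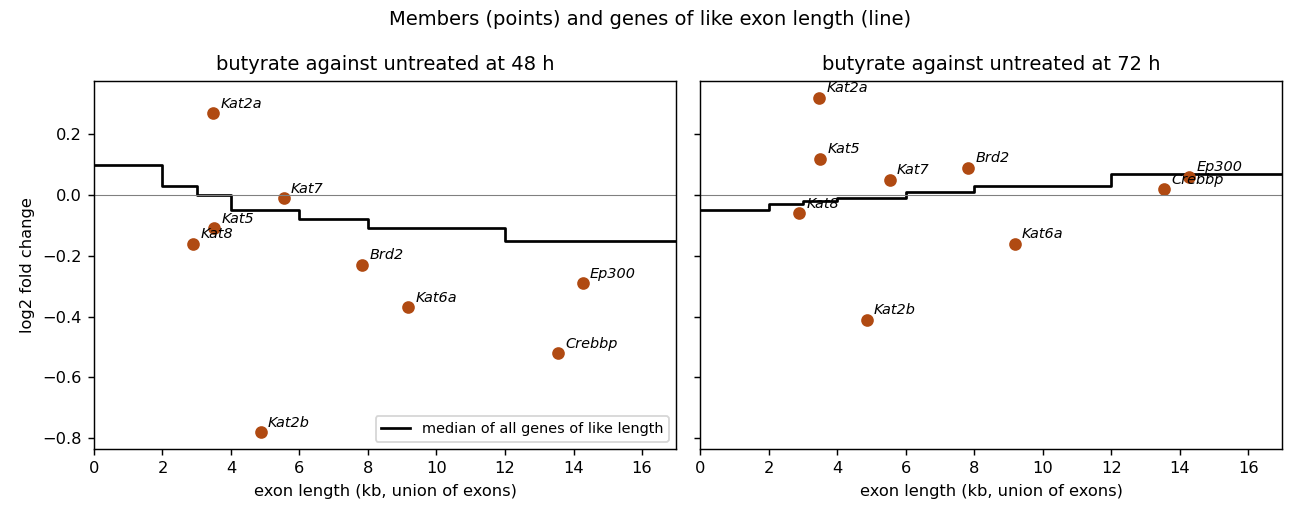
Log2 fold change of butyrate over untreated at 48 h and 72 h against exon length in kb (union of exons), with the 9 genes as points and the median of all genes of like length, averaging 100 or more normalised counts, as a step line. The line falls from 0.10 to −0.15 at 48 h and rises from −0.05 to 0.07 at 72 h, and *Kat2b* lies farthest from it on both days.

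Levels were compared between genes per kb of exon. The mean over the 4 libraries, in normalised counts per kb, was 1115 for *Brd2*, 359 for *Kat2a*, 356 for *Kat7*, 319 for *Kat6a*, 258 for *Ep300*, 249 for *Kat5*, 164 for *Crebbp*, 107 for *Kat2b* and 79.0 for *Kat8*. *Brd2* was above every other member in every library. From *Kat2a* to *Kat5*, each gene overlapped its neighbour in this order over the range of the 4 libraries, as did *Crebbp* and *Kat2b*, and *Kat2b* and *Kat8*. The lengths to divide by are uncertain, since the genes have between 3 and 19 annotated transcripts. With the longest transcript as the length, *Kat7* came after *Brd2* at 553 and *Kat5* next at 389, ahead of *Ep300* at 385 and *Kat2a* at 383, and *Kat8*, at 145, came above *Kat2b*, at 112. The summed level of the 9 genes was 2847 untreated and 2526 with butyrate on day 2, and 3262 and 3394 on day 3, in normalised counts per kb of exon.

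The subunits that carry these enzymes were followed through lists written from general knowledge, with earlier results of these data known. Their values can be read beside the medians and shares of all genes given above. Of 22 SAGA and ATAC subunits, all of them tested, 1 was at least 1.5-fold higher and 2 at least 1.5-fold lower on day 2, and none was past that line on day 3. The median was −0.14 on day 2 and 0.07 on day 3, or −0.09 and 0.09 after correction for exon length. *Tada2a*, an adaptor of the ATAC complex, was higher by 0.76 (0.59 to 0.93) and 0.31 (0.12 to 0.50). *Tada2b*, the adaptor that takes its place in SAGA, had −0.58 (−0.74 to −0.41) and −0.21 (−0.38 to −0.04). *Atxn7*, which anchors the deubiquitinating module of SAGA, had −0.74 (−0.88 to −0.60) and −0.33 (−0.46 to −0.20), and *Tada1* had −0.61 (−0.81 to −0.41) on day 2, or −0.56 and no longer past 1.5-fold after correction for exon length. The adaptors *Tada2a* and *Tada2b* thus differed in direction. They do not pair with *Kat2a* and *Kat2b*, which are alternatives within both complexes. Over the 22 subunits, 3 had an interval above 0 and 10 below 0 on day 2. *Tada1* and *Tada2b* were named after their values were seen.

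Of 16 TIP60 complex subunits, none was at least 1.5-fold higher and 2 were at least 1.5-fold lower on day 2, and none was past the line on day 3, with medians of −0.15 and 0.10. The low genes on day 2 were the scaffolds *Epc1* and *Epc2*, at −0.97 (−1.10 to −0.84) and −0.87 (−1.01 to −0.73). On day 3 they were at −0.12 (−0.24 to 0.01) and −0.12 (−0.23 to −0.01). *Ruvbl2*, an ATPase that the complex shares with other chromatin remodellers, was higher by 0.27 (0.16 to 0.37) and 0.38 (0.26 to 0.49). *Epc1* was named after its values were seen.

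Of 9 subunits of the MOZ and HBO1 complexes, none was past 1.5-fold on either day. Their median was −0.33 on day 2 and −0.03 on day 3, and 7 of the 9 had an interval below 0 on day 2 and 2 on day 3. *Brpf3*, a scaffold of HBO1, was lower by 0.31 (−0.38 to −0.24) and 0.40 (−0.47 to −0.33), as log2 values. Of 11 MSL and NSL subunits, 1 was at least 1.5-fold lower on day 2, *Msl3* at −0.60 (−0.72 to −0.48), and none was past the line on day 3. The medians were −0.20 and 0.12. *Msl3* was at −0.17 (−0.29 to −0.05) on day 3, and the NSL subunit *Phf20* was higher by 0.46 (0.33 to 0.60) and 0.37 (0.22 to 0.52).

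Among 13 other acetyltransferases, 1 was at least 1.5-fold lower on day 2, *Kat6b* at −0.68, which the correction for exon length brought to −0.53 and short of the line, and none was past the line on day 3, with medians of −0.17 and 0.01. After that correction the medians were −0.11 and 0.03. *Hat1*, which acetylates newly made histones before they reach chromatin, had 0.09 (−0.04 to 0.22) on day 2 and 0.50 (0.36 to 0.63) on day 3. The nuclear receptor coactivator *Ncoa1* was lower by 0.41 (−0.54 to −0.28) and 0.42 (−0.54 to −0.31). A list of 10 cell cycle genes had a median of 0.03 on day 2 and 0.30 on day 3, and *Top2a*, which untangles DNA in dividing cells, had 0.22 (0.18 to 0.26) and 0.48 (0.44 to 0.53). *Ccna2* had −0.21 (−0.28 to −0.14) and −0.07 (−0.14 to 0.01). The part of cell division in the values of *Hat1* and of the other genes was not tested.

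Of 16 partners of p300 and CBP, 1 was at least 1.5-fold higher and 3 at least 1.5-fold lower on day 2, and 1 was higher on day 3, with medians of −0.28 and 0.02. After correction for exon length these medians were −0.18 and 0.01. *Cited2*, which competes with other factors for a domain of p300 and CBP, had 0.65 (0.55 to 0.76) on day 2 and −0.50 (−0.59 to −0.40) on day 3. *Maml1*, the coactivator that brings p300 to the Notch complex, had −0.79 (−0.95 to −0.64) and −0.08 (−0.22 to 0.06). The other values past the line were in genes of few counts, *Cited1* with −1.04 (−1.66 to −0.48) on day 2, and *Maml2* with −0.75 (−1.60 to 0.02) on day 2 and 0.76 (0.14 to 1.44) on day 3. By the rule of naming, *Hif1a* came first among partners higher on both days, with 0.34 (0.24 to 0.44) and 0.15 (0.06 to 0.23). *Crtc1*, a coactivator of Creb, was lower by 0.23 (−0.39 to −0.08) and 0.16 (−0.32 to −0.01). *Cited2*, *Maml1*, *Cited1* and *Maml2* were named after their values were seen.

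Other bromodomain readers were mostly lower on day 2 and mostly higher on day 3. Of 29 listed genes, 27 were tested, and 21 had an interval below 0 on day 2 but 4 on day 3, while 3 had an interval above 0 on day 2 and 16 on day 3. On day 2, 2 were at least 1.5-fold higher, *Brdt* and *Sp140*, and 5 at least 1.5-fold lower. The low genes were *Trim24* at −1.04 (−1.13 to −0.96), *Zmynd11* at −0.92 (−1.01 to −0.83), *Atad2b* at −0.65 (−0.78 to −0.52), *Phip* at −0.64 (−0.79 to −0.50) and *Baz2b* at −0.62 (−0.74 to −0.51). The list median was −0.28 on day 2 and 0.15 on day 3, and in butyrate cultures from day 2 to day 3 it was 0.46, against −0.011 for all genes, with 10 of 27 at least 1.5-fold higher. Many of these genes are long, with more than 12 kb of exon in 12 of the 27 and more than 8 kb in 19. The 640 genes above 12 kb had a median of 0.27 in the same comparison, with 71.2% of intervals above 0, and on day 2 54.7% of them had an interval below 0. After the median of genes of like length was subtracted, the list median was −0.18 on day 2, 0.11 on day 3 and 0.26 from day 2 to day 3 with butyrate, with 2 genes at least 1.5-fold lower on day 2 and 5 at least 1.5-fold higher with time. On day 3 *Brdt* was past the line upwards and *Sp140*, which had under 20 normalised counts, downwards, at −0.79 (−2.42 to 0.53). *Smarca2*, an ATPase of the BAF remodeller, was lower by 0.49 (−0.62 to −0.37) and 0.29 (−0.40 to −0.18), and *Trim33* was higher by 0.12 (0.02 to 0.21) and 0.14 (0.05 to 0.22). The readers *Trim24*, *Zmynd11*, *Atad2b*, *Phip*, *Baz2b* and *Sp140* were named after their values were seen.

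**Figure D5:**
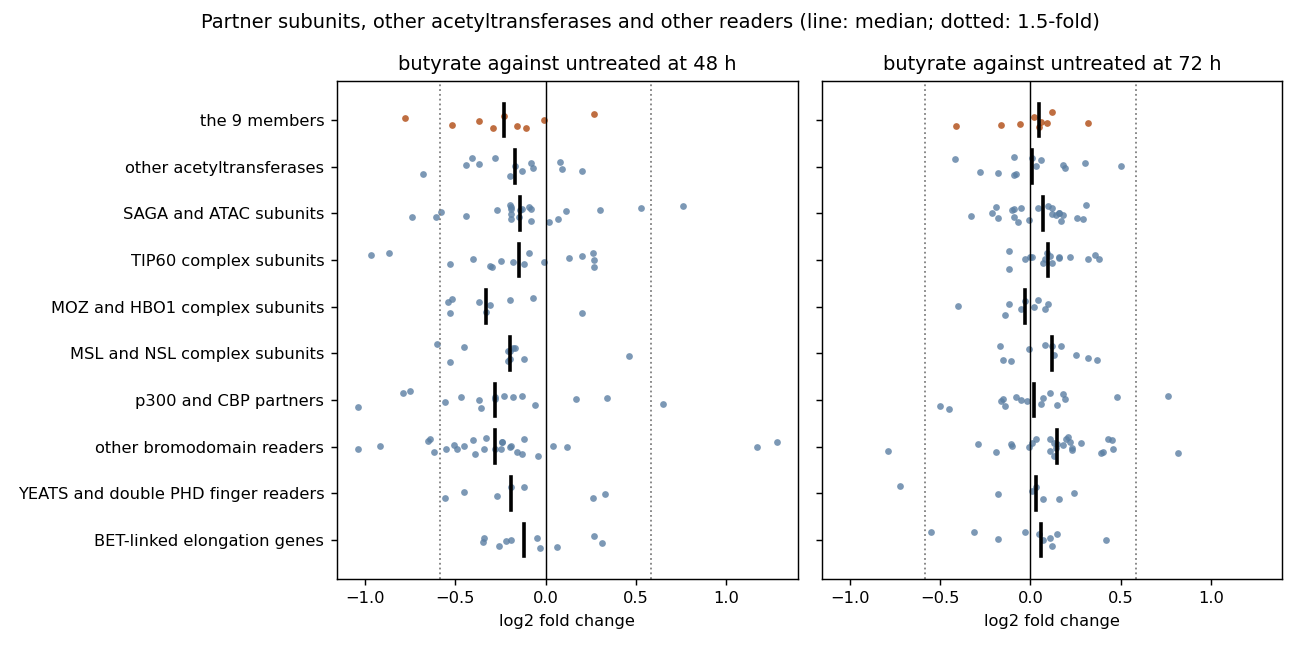
Log2 fold change of butyrate over untreated at 48 h and 72 h for the 9 genes and for the tested genes of each list (points), with the list median as a line and dotted lines at 1.5-fold. All list medians shown lie below 0 at 48 h, between −0.33 and −0.12 (−0.28 and −0.01 for the lists after correction for exon length), and between −0.03 and 0.15 at 72 h.

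Readers with YEATS or PHD finger modules, 7 of 8 tested, had medians of −0.19 and 0.03. None was past 1.5-fold on day 2, and *Dpf3* was lower on day 3, at −0.72 (−1.34 to −0.15). *Mllt1* (ENL), a YEATS reader of the elongation machinery, was higher by 0.26 (0.17 to 0.35) and 0.24 (0.14 to 0.33), and *Phf10*, a subunit of the BAF remodeller, was lower by 0.45 (−0.56 to −0.33) and 0.18 (−0.29 to −0.07). *Dpf1* did not pass the filter on low counts, with 4, 45, 8 and 10 counts in the untreated and butyrate libraries on day 2 and then on day 3. Among 10 genes of transcription elongation linked to BET proteins, none was past 1.5-fold on either day, with medians of −0.12 on day 2 and 0.06 on day 3, and of −0.01 and 0.06 after subtraction of the median of genes of like exon length. *Cdk9*, the kinase of P-TEFb that BET proteins recruit, was higher by 0.31 (0.22 to 0.40) and 0.15 (0.05 to 0.24), and *Ell* was lower by 0.26 (−0.43 to −0.09) and 0.31 (−0.47 to −0.16). *Hexim1*, an inhibitor of P-TEFb, had 0.06 (−0.05 to 0.17) and 0.07 (−0.04 to 0.18). *Dpf3*, *Dpf1* and *Hexim1* were named after their values were seen.

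For the 3 members of the widest range, the genes with the most similar pattern were found among the 10791 genes that averaged 100 or more normalised counts. Similarity was the largest difference, over the 4 libraries, between log2 levels centred on their own means. Nearest to *Crebbp* were *Klf7* at 0.023, *Rapgef2* at 0.047 and *Ccdc120* at 0.048, and 9 genes lay within 0.1. The *Klf7* levels were 776, 533, 1106 and 1089.8 normalised counts, in the order of the libraries used above. Nearest to *Kat2b* were *Tmco3* at 0.026, *Mctp2* at 0.033 and *Trafd1* at 0.033, of 33 genes within 0.1. Nearest to *Ep300* were *Ing3* at 0.013, *Zfp236* at 0.020 and *9930021J03Rik* at 0.026, of 129 genes within 0.1. *Ing3*, a reader subunit of the TIP60 complex, had 460.1 normalised counts untreated and 375 with butyrate on day 2, and 557 and 583 on day 3. A pattern over 4 libraries can be matched by many genes, and the names describe these libraries only.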

How the data were processed

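RNA was sequenced from 4 cultures, 1 library for each condition, and libraries were grouped by their titles. The authors deposited counts per gene, which are whole-number estimates: libraries were made with TruSeq chemistry after poly-A selection, transcripts were quantified with kallisto 0.44.0 (version and build GRCm38.p6 from the submitters' processing notes) and summed to genes with tximport. No filter or normalisation was applied in the deposited table. The transcript annotation is not given in the sources used here.

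A gene was tested if 2 or more libraries had above 10 counts for it, the filter of the study's methods, and 13979 genes were. All 9 members passed. Counts were divided by size factors of DESeq2 1.42.0 (0.978 and 1.10 for untreated and butyrate at 48 h, 1.01 and 0.926 at 72 h). Log2 fold changes were taken after adding a pseudocount of 1, so the change of low genes is understated. Intervals are exact Clopper-Pearson intervals on the pair of counts, and those of differences between effects come from the delta method. Without molecular identifiers, reads may be copies of 1 molecule, and the intervals hold counting error alone. No model with p-values was fitted. Fold changes and intervals were tested on simulated Poisson counts, the model that the intervals assume. Such counts hold no variation between cultures, so the simulation cannot show how the intervals fare with it.

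Positions, exon lengths and overlaps came from GENCODE M21 (GRCm38), and sequences from RefSeq (GRCm38.p6). A match to a member's 31-base words was searched on both strands of all GENCODE transcripts. Of the names in the table, 26 had been turned into dates. The members and the 16 gene lists were chosen with earlier results of these data known. Named genes were the 9 members, relatives of them (*Kat6b*, *Brd3*, *Brdt* and *Hat1* here), the highest and lowest gene of each list other than the markers by the smaller of its changes at 48 h and 72 h (same sign, mean normalised count of at least 100), and 3 genes of similar pattern for each of the 3 members of widest range. Alternatives were TMM factors (edgeR 4.0.16), total counts with and without mitochondrial genes, a pseudocount of 5, other filters, another length and a correction for length. Scripts ran in R 4.3.3 and Python 3.11.15 (scipy 1.17.1, pandas 2.3.3, numpy 2.4.6, matplotlib 3.10.9). Some named items are not reported here.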

Additional observations from a re-analysis of the deposited data

Results flagged for a closer look

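Among the 9 genes and the relatives named, *Brd2* and *Brd3* had counting intervals below 0 on day 2 and above 0 on day 3. So did 5.33% of all genes tested (6.59% of those averaging 100 or more normalised counts), 13 of the 27 other bromodomain readers, a list that holds *Brd3*, and 5 of the 11 MSL and NSL subunits. Those 2 lists had the highest shares. Other lists ran from 0 of 9 MOZ and HBO1 subunits, 0 of 10 elongation genes and 0 of 15 acetyl-CoA genes upwards. SAGA and ATAC subunits had 3 of 22, TIP60 subunits 3 of 16 and cell cycle genes 2 of 10. More than 8 kb of exon was found in 19 of these 27 readers and 3 of these 11 subunits, and more than 12 kb in 12 and 0. On the log2 scale, butyrate over untreated was −0.23 and then 0.09 for *Brd2*, and −0.45 and then 0.20 for *Brd3*. The difference between the days was not tested, since a single culture stands for each condition. After the median of genes of like exon length was subtracted, *Brd2* was at −0.15 and 0.09.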

How the results depend on the processing

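The labels give no replicate numbers to pair by. Treatment can be paired by day, which leaves 1 residual degree of freedom, and that fit was not run. Leaving out a library would remove its condition. Of 180 recomputed log2 fold changes of the 9 genes, 166 lay inside the counting interval of the value reported and 14 outside it, and no value whose interval lay away from 0 turned its sign. Of the 14, 4 came with total count scaling and 10 with the correction for exon length, which was chosen after seeing the data. Total count scaling raised the all-gene median with butyrate on day 3 from 0.002 to 0.054. The members whose day 3 interval included 0 were then at 0.109 (*Ep300*), 0.076 (*Crebbp*), 0.17 (*Kat5*), 0.099 (*Kat7*) and −0.0119 (*Kat8*). No intervals are given for that scaling, so whether they would include 0 is left unsaid. Under the scalings, the pseudocount of 5 and the filter, all 240 recomputed medians of lists stayed within 0.1 of the value reported, though the day 3 medians of the MOZ and HBO1 subunits and of the acetyl-CoA genes were above 0 with total count scaling, at 0.0255 and 0.0104, and that of p300 and CBP partners below 0, at −0.0178, without genes of few counts. The number of members at least 1.5-fold higher from day 2 to day 3 with butyrate was 3, and 1 with total count scaling and 1 with the correction for length. *Ep300* and *Brd2* lay just above the line, and the correction moved both outside their counting intervals. With it, *Kat6b*, *Tada1*, *Atad2b*, *Baz2b* and *Phip* were no longer past 1.5-fold on day 2, and list medians moved by more, on day 2 from −0.12 to −0.01 for elongation genes and from −0.28 to −0.18 for p300 and CBP partners, and with time in butyrate from 0.46 to 0.26 for bromodomain readers. The counts of members past 1.5-fold with butyrate on day 2 and day 3 did not change under the scalings, the pseudocount of 5 or the correction for length.

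The share of all genes past 1.5-fold depended on the filter. Among genes averaging 100 or more normalised counts, 7.08% were higher and 5.75% lower with butyrate on day 2, 4.31% and 4.26% on day 3, 2.31% and 2.62% from day 2 to day 3 untreated, and 5.77% and 7.00% with butyrate. Among all genes with at least 1 count, these were 21.0% and 14.9%, 15.8% and 17.2%, 15.4% and 12.6%, and 15.7% and 20.6%. The filters add or remove genes of few counts. Levels per kb and ratios of relatives moved in 25 of 29 cases with the longest transcript as the length, the ratio of *Kat6a* to *Kat6b* from 4.20 to 1.94 in the untreated library of day 2.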

Other observations

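Genes that supply or use acetyl-CoA were followed in a list of 15, all of them tested. None was at least 1.5-fold higher with butyrate on either day, 2 were at least 1.5-fold lower on day 2 and none on day 3, and the medians were 0.03 and −0.04. *Acat2*, which joins acetyl-CoA units in the cytosol, had −0.80 (−0.88 to −0.72) on day 2 and 0.08 (−0.01 to 0.16) on day 3. *Pdk4*, an inhibitor of pyruvate dehydrogenase, had −0.60 (−1.28 to 0.03) on day 2. *Acly*, which makes nuclear and cytosolic acetyl-CoA from citrate, had 0.03 (−0.01 to 0.07) and −0.12 (−0.16 to −0.08). *Acss2*, which makes it from acetate, had 0.38 (0.30 to 0.46) and −0.25 (−0.34 to −0.15). *Pdk3* had 0.25 (0.06 to 0.45) and 0.17 (−0.04 to 0.38), and *Crat*, carnitine acetyltransferase, had −0.19 (−0.34 to −0.05) and −0.27 (−0.42 to −0.13). *Acat2*, *Pdk4*, *Acly* and *Acss2* were named after their values were seen.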
